A study of Homo sapiens with 40 samples.

Results

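The ZNF genes of chromosome 19 were followed at their promoters by ATAC-seq, which marks DNA that the transposase can reach. All protein-coding genes of chromosome 19 whose symbol starts with ZNF in GENCODE release 44 (GRCh38) were taken, which gave 249 genes of 19970 protein-coding genes. The peaks of all 40 lists were merged where they overlapped by at least 1 bp, and a region counted as a member if it was found in at least 2 lists and its midpoint lay within 1 kb of a transcript start of one of these genes. This left 245 of 71600 regions, which covered 224 of the 249 genes. The midpoint farthest from a start lay at 942.5 bp and the first region outside the limit at 1001 bp, and 220 of the 245 midpoints lay within 300 bp of a start. A single region was found for 190 genes and 2 or more for 34 genes. Because neighbouring and read-through genes share starts, 16 regions belonged to 2 or more members and 34 also lay at the start of a protein-coding gene outside the list.

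ZNF genes encode proteins with arrays of C2H2 zinc fingers, each finger a small fold that contacts a few bases of DNA. Many carry a KRAB domain, which recruits TRIM28 (KAP1) and through it the methyltransferase SETDB1 and HP1 proteins, and the best known role of this system is to silence transposable elements. The family grew by tandem duplication, so that most of its human members sit in a few dense clusters on chromosome 19, with promoters that are often alike in sequence. Translated from the annotated canonical transcripts, the 249 members held a median of 12 fingers (range 0 to 36, pattern C, 2 to 4 residues, C, 12 residues, H, 3 to 5 residues, H), and 238 held at least 5.

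BT474 is a HER2-amplified luminal breast ductal carcinoma line, and BT474R is its trastuzumab-resistant derivative, described by the study as 1 clone selected under the drug. Cells of both lines were serum starved and sampled at once (baseline, 0 h) or 1, 12 and 24 h after EGF, a ligand of EGFR, heregulin (HRG), which binds the receptors HER3 and HER4, or the water vehicle (control). That gave 10 conditions per line, 2 libraries per condition and 20 libraries per line. The study reports duplicate treatments. Nothing in the sources used here says that the 2 libraries of a condition came from separate cultures grown at different times. The limma p-values therefore measure the spread between these libraries, which may be technical. Fisher's exact test instead treats all libraries on a side as alike, although they span different times and, between lines, different arms.

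The lists differed in length with line and time. They held 47571 to 56846 peaks in BT474 (median 51357) and 32479 to 56494 in BT474R (median 46641), and the shortest were the BT474R lists at 12 h with control (32479 and 40331) and EGF (37476 and 38205). Of the 10 luminal and HER2 markers, 9 had a promoter region, all but GRB7, and ERBB2 and FOXA1 had mean percentiles above 99 in both lines. Not all markers were alike in the lines: GATA3 stood at 85.2 in BT474 and 59.1 in BT474R, CDH1 at 71.4 and 58.9, and ESR1 at 34.8 and 36.9, with a peak in 19 libraries of each line. Among markers of other cell types, PTPRC, CD3E and PECAM1 had no region, COL3A1 had one in 6 BT474 libraries and 0 BT474R libraries, and COL1A1 and VWF were open in all 40 libraries.

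The stretches below show the kinds of promoter on which the results turn. Each is a window of up to 150 bases around the peak summit, read from GRCh38 5′ to 3′ on the strand of the gene and kept outside all annotated exons, with the letters CCAAT or their complement ATTGG in capitals. The first 3 belong to promoters with no peak or a much weaker one in BT474R, the next to a region that was open in BT474R only, the fifth to the region with the largest fall among those open in all 40 libraries, the sixth and seventh to the promoters with the largest rises in percentile, and the last to the member with the highest mean percentile.
ZNF556 promoter, chr19:2867185-2867334, plus strand: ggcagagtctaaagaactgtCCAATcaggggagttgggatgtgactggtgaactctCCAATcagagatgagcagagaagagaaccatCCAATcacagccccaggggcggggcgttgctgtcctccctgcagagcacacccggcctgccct
ZNF439 promoter, chr19:11848583-11848725, plus strand: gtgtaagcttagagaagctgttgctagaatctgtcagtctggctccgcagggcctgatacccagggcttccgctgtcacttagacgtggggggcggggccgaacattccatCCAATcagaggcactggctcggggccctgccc
ZNF626 promoter, chr19:20661624-20661773, minus strand: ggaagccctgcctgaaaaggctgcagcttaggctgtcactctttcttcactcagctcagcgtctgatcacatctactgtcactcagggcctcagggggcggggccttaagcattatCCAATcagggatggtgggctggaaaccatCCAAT
ZNF626 upstream region, chr19:20662526-20662675, minus strand: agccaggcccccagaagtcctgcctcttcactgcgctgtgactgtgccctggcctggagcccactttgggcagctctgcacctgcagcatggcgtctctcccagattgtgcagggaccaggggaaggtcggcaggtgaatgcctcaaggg
ZNF331 downstream promoter, chr19:53554349-53554498, plus strand: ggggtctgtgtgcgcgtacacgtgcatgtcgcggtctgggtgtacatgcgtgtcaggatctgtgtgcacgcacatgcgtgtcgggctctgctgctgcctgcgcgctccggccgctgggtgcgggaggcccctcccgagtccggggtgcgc
ZNF726 promoter, chr19:23914726-23914875, plus strand: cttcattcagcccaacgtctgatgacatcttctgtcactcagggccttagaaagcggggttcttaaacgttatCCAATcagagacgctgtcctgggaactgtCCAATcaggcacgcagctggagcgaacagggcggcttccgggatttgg
ZNF91 promoter, chr19:23395472-23395621, minus strand: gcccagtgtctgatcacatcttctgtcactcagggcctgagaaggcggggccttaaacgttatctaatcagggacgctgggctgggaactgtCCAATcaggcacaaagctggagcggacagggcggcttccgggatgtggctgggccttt
ZNF799 promoter, chr19:12401275-12401424, minus strand: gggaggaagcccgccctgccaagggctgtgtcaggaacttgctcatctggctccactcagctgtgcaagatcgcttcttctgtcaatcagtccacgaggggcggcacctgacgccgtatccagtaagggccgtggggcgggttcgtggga

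These windows differ in base composition and in the marked letters. The ZNF556 window held 3 CCAAT matches and 3 CpG dinucleotides, whereas the ZNF331 window held 0 CCAAT matches and 17 CpG dinucleotides. The ZNF726 and ZNF91 windows come from one cluster and share long runs of letters, and they held 2 and 1 CCAAT matches. The upstream ZNF626 window, open in BT474R only, held 0 matches.

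ZNF promoters of chromosome 19 were open in most libraries. Of the 245 regions, 208 (84.9%) had a peak in all 40 lists, against 35.1% of all 71600 regions, 63.5% of 16772 other protein-coding promoter regions, 61.8% of the 988 others on chromosome 19 and 77.9% of 271 ZNF promoter regions on other chromosomes. Signal was compared as the rank percentile of the deposited peak score within each list, from 0 for no peak to 100 for the strongest peak. The median of the members' mean percentile was 77.8, against 64.9 for other protein-coding promoters and 22.6 for all regions, and the middle of the members ran from 61.6 to 86.8 (quartiles).

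At the top stood ZNF799, ZNF564, ZNF566, ZNF823 and ZNF700. The ZNF799 promoter (chr19:12399852-12401815) lay between 98.5 and 98.9 in BT474 (median 98.8) and between 97.6 and 98.4 in BT474R (median 98.0). The lowest among the regions open in all 40 libraries were those of ZNF492, ZNF222, ZNF28, ZNF350 and ZNF175. ZNF492 (chr19:22634026-22634408) ranged from 32.8 to 50.6 in BT474 (median 40.4) and from 17.2 to 50.4 in BT474R (median 39.3), and the lines overlapped. The regions with the fewest peaks were distal ones of ZNF433 (2 libraries) and ZNF878 (3 libraries), both in BT474 only, a second ZNF175 region (3 libraries, BT474R only) and a ZNF347 region (4 libraries, BT474 only).

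No promoter region was found for 25 members, and none of the 25 had a peak even in a single list. They were ZNF69, ZNF98, ZNF99, ZNF132, ZNF154, ZNF177, ZNF208, ZNF223, ZNF229, ZNF285, ZNF404, ZNF534, ZNF541, ZNF560, ZNF582, ZNF583, ZNF667, ZNF671, ZNF676, ZNF677, ZNF723, ZNF728, ZNF729, ZNF814 and ZNF835. Several of these are neighbours. ZNF208, ZNF676, ZNF729, ZNF98, ZNF99, ZNF723 and ZNF728 lay between chr19:21932958 and 23003176, a stretch in which only 2 of 9 members, ZNF257 and ZNF492, had a region. ZNF582, ZNF583 and ZNF667 followed each other within chr19:56375846-56478065, as did ZNF154 and ZNF671 within chr19:57696275-57727624. In the RefSeq promoters (GRCh38.p14, 250 bases before to 50 after the start), the CpG observed over expected ratio had a median of 0.743 in the 19 of 25 that matched by symbol and of 0.764 in the 199 of 224 members with a region, and the ranges overlapped (0.176 to 1.06 and 0.221 to 1.21).

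**Figure D1:**
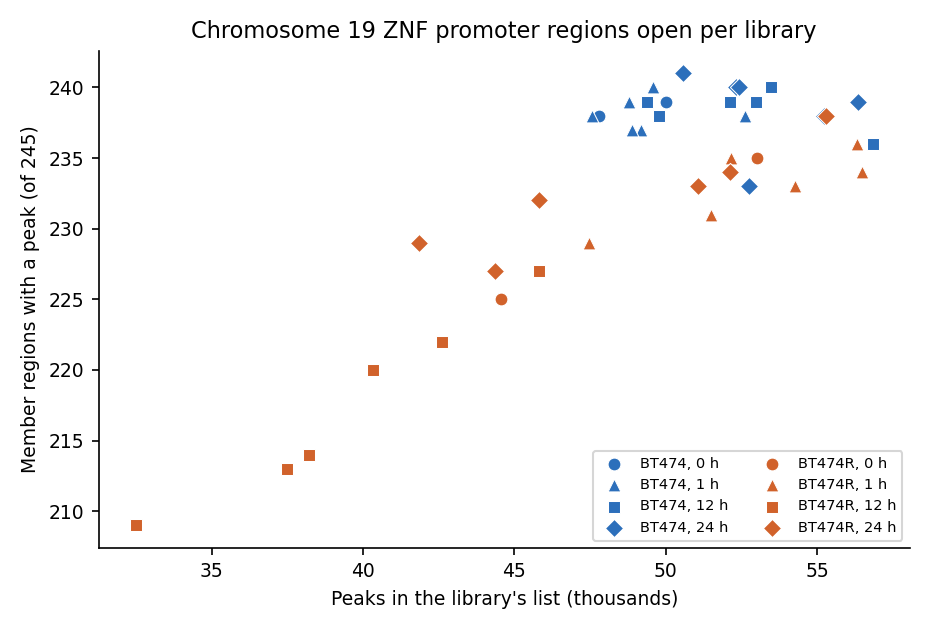
Number of the 245 member regions with a peak (vertical axis) against the number of peaks in the list (horizontal axis, divided by 1000), 1 point per library, coloured by line and shaped by time. The BT474 lists held 233 to 241 member regions, and the BT474R lists 209 to 238, with the lowest counts in the short 12 h lists.

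The presence of a peak differed between the lines at 17 member regions. Of the 245 regions, 15 (6.12%) were open in fewer BT474R than BT474 libraries and 2 (0.816%) in more (Fisher's exact test, 20 against 20 libraries, two-sided, Benjamini-Hochberg adjusted over all regions). Over all regions 18.4% were called lower and 11.0% higher. A region open in all 40 libraries cannot be called, and these made up 84.9% of the members and 35.1% of all regions. The smaller share among members therefore does not show that their presence changed less. Of the 37 member regions not open in all 40 libraries, 15 were called lower and 2 higher. Of all 46434 such regions, 13141 were called lower and 7842 higher. All 20 BT474 libraries were open at 233 member regions, and all 20 BT474R libraries at 208. Of the 25 regions open in every BT474 library but not in every BT474R library, 24 were missing from 1 of the 12 h control lists and 20 from each of the 12 h EGF lists, while the 1 h control lists missed 1 and 3. Without the 12 h libraries (14 against 14), 6 of the 15 losses and both gains were still called, which were ZNF556, ZNF439, ZNF536, ZNF792, ZNF578, ZNF90, ZNF626 and ZNF587B.

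ZNF556 was the clearest loss. Its promoter (chr19:2866950-2867466) had a peak in 20 of 20 BT474 libraries and in 0 of 20 BT474R libraries (adjusted p = 4.18e-10, Fisher's exact test), at percentiles of 38.2 to 65.7 in BT474 (median 47.8). A few further members had no peak in any BT474R library, and all were weak in BT474. ZNF536, a brain-expressed regulator of neuronal differentiation, was open in 17 BT474 libraries (median percentile 20.2, adjusted p = 3.19e-07), ZNF439 in 16 (median 8.60, adjusted p = 1.62e-06) and a second ZNF565 region (chr19:36245775-36246493) in 10 (adjusted p = 0.00209), each by Fisher's exact test. Since peaks under a score of 200 are not listed, 0 of 20 says only that no peak passed the caller's minimum.

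ZNF578 and ZNF90 were strong enough in BT474 for the lines to separate in full. The ZNF578 promoter (chr19:52492623-52493404) was open in 20 BT474 libraries at 29.1 to 58.5 and in 5 BT474R libraries, none above 10.3. ZNF90 (chr19:20077748-20078066) was open in 20 and 7 libraries, at 31.9 to 47.8 in BT474 and at most 10.2 in BT474R. ZNF792 went from 18 libraries to 2, ZNF507 and ZNF415 each from 19 to 6, and ZNF780B from 20 to 9. ZNF358 and ZNF813 were open in 20 and 12 libraries, and ZNF426, ZNF579 and a second ZNF552 region in 20 and 13. Those 5, together with ZNF507, ZNF415, ZNF565 and ZNF780B, were no longer called without the 12 h libraries, where ZNF426 was open in 14 and 13 of 14, and ZNF358 and ZNF813 in 14 and 12. ZNF507 and ZNF415 were then open in 13 and 6, ZNF565 in 6 and 0 and ZNF780B in 14 and 9, differences that 14 against 14 libraries did not call.

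Both gains lay beside a member promoter and not on it. The ZNF626 gain (chr19:20662265-20662705) had its midpoint at -889 bp from the start and was open in 0 BT474 and 12 BT474R libraries (adjusted p = 0.00027, Fisher's exact test), while the ZNF626 promoter itself (chr19:20660977-20661849) went from 20 to 14 libraries (adjusted p = 0.0628, Fisher's exact test). In BT474R, 11 libraries had both peaks, 3 the promoter alone, 1 the upstream region alone and 5 neither. The ZNF587B gain lay near an inner transcript start and was open in 0 and 16 libraries (adjusted p = 1.62e-06, Fisher's exact test). The main ZNF587B promoter (chr19:57819215-57820201) was open in all 40.

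Signal at these promoters was lower in BT474R. Among the 236 member regions with a peak in at least 20 lists, 187 had a lower and 22 a higher percentile in BT474R (limma on the 20 condition means, adjusted p below 0.05 over 46799 regions), and the median difference was -5.21 percentile points. Over all regions 55.2% were lower and 30.1% higher, with a median of -3.89, and of 14270 other protein-coding promoters 63.3% were lower, with a median of -4.25. Ranks within a list move with its length, so the comparison was repeated on ranks among the 25166 regions open in all 40 libraries. On that scale 138 of 208 member regions were lower and 43 higher, against a background of 42.5% and 41.5%, and lower calls made up 76.2% of the members' calls in place of 89.5%. The median difference was -4.94 rank points for the members, -0.15 for all regions, -0.88 for other promoters of chromosome 19, -1.48 for ZNF promoters of other chromosomes and -1.87 for other protein-coding promoters. With the 12 h groups left out, 170 and 28 of the 236 percentiles, and 144 and 29 of the 208 ranks, were lower and higher. Over all regions the same counts were 21229 and 16375 of 46799 percentiles, and 10522 and 9722 of 25166 ranks.

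**Figure D2:**
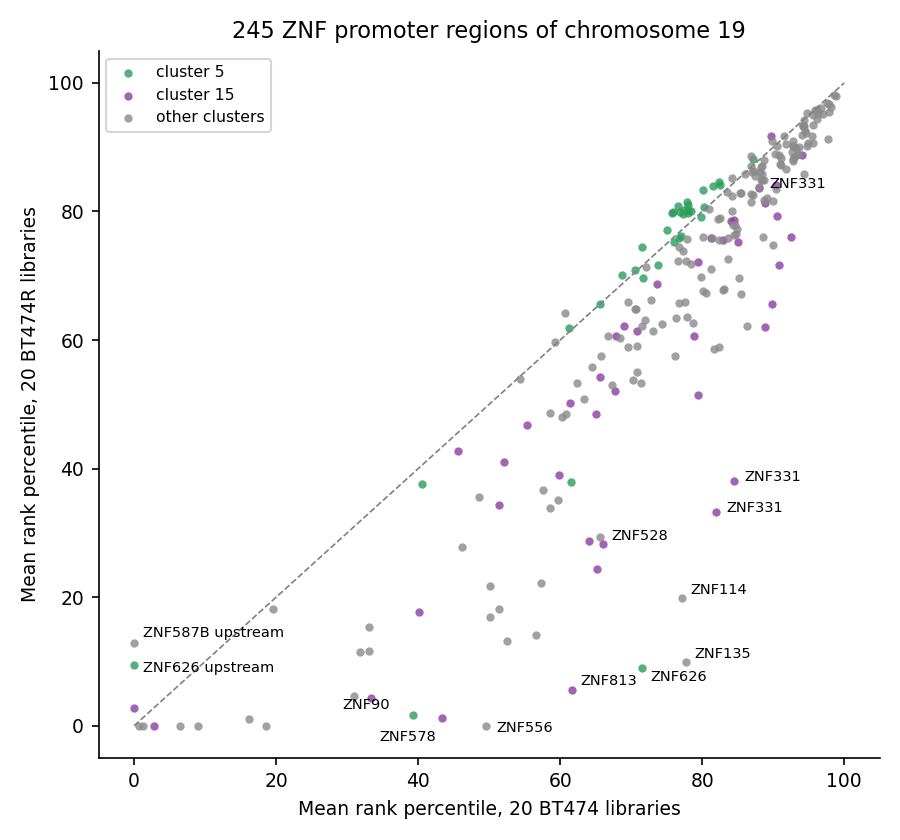
Mean rank percentile of each of the 245 member regions in the 20 BT474 libraries (horizontal axis) and the 20 BT474R libraries (vertical axis), coloured by cluster, with the dashed line marking equal values. Most points lie below the line, several promoters of cluster 15 and of ZNF135, ZNF114 and ZNF626 far below it, and a group of cluster 5 promoters just above it.

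The 20 BT474 and 20 BT474R libraries did not overlap at 56 of the 236 regions, all of them lower in BT474R, where 14.2% of all regions tested were lower without overlap and 5.22% higher. Falls of over 20 percentile points were seen at 35 of the 236 member regions (14.8%) and at 20.3% of all regions tested, so large falls were not more frequent among the members. ZNF135 fell the most, by 67.7 points (SE 1.54, limma adjusted p = 3.40e-22). Its promoter (chr19:58059046-58059985) stood at 74.2 to 82.0 in BT474 (median 77.5) and at 0 to 21.8 in BT474R (median 10.6), with a peak in 16 of 20 libraries. The ZNF626 promoter dropped by 62.6 points (SE 2.25), from a median of 71.4 to one of 6.09. ZNF114 dropped by 57.3 (SE 3.03), from a median of 77.3 to one of 18.99, and ZNF813 by 56.1 (SE 2.21), from 64.2 to 4.04. In each of the 4 the BT474R libraries all lay below the lowest BT474 library.

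ZNF331, an imprinted gene, had 3 promoter regions, and they differed. The downstream promoter (chr19:53553598-53555274) fell by 48.7 points (SE 2.70), from 70.2 to 87.6 in BT474 (median 82.8) to 3.87 to 56.4 in BT474R (median 38.3), and on the scale of regions open in all 40 libraries its fall of 57.3 rank points (SE 1.88) was the largest of the members. The middle one (chr19:53537319-53539109) fell by 46.4 points (SE 3.99), from a median of 85.1 to one of 41.6. The upstream one (chr19:53520509-53521619) was open in all 40 libraries and fell by only 4.46 points (SE 0.389). One of 2 ZNF552 regions (chr19:57813073-57814292) fell by 42.4 points (SE 2.52) with overlap between the lines, and the other, open in all 40 libraries, by 2.62 (SE 0.432). ZNF578 fell by 42.1 points (SE 1.90).

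**Figure D3:**
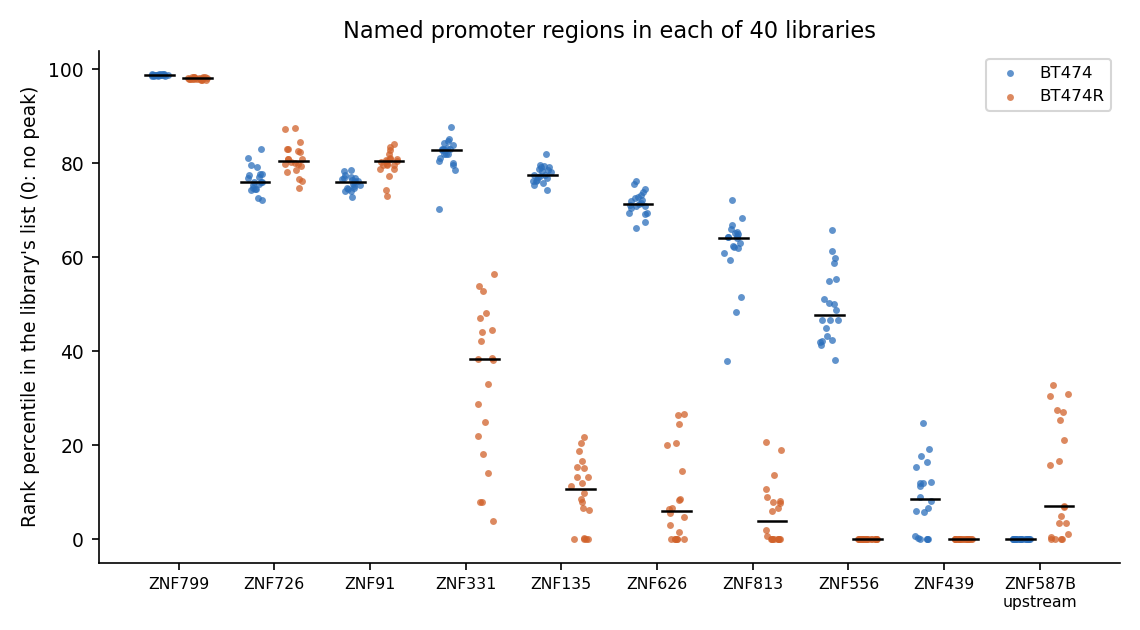
Rank percentile in each of the 40 libraries (vertical axis, 0 where the list had no peak) for 10 named regions, with BT474 on the left and BT474R on the right of each pair and a bar at the median. ZNF799 stays near 98 in both lines, ZNF726 and ZNF91 are a few points higher in BT474R with overlap, and ZNF135, ZNF626, ZNF813 and ZNF556 separate in full.

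The rises were small and came mostly from one cluster. Members were split into 16 clusters where neighbouring starts lay more than 1 Mb apart, and cluster 5 (chr19:19668796-24104186, 37 genes, 30 of them with a region) held 18 of the 22 regions that were higher in BT474R. ZNF726 rose by 4.23 percentile points (SE 0.851, limma adjusted p = 7.46e-05), from 72.2 to 83.0 in BT474 (median 76.0) to 74.7 to 87.5 in BT474R (median 80.5). ZNF91, which is known to silence SVA transposons, rose by 3.99 points (SE 0.668), from a median of 76.0 to one of 80.4, and ZNF506 by 3.97 (SE 0.577), from 75.6 to 80.2. ZNF493, ZNF43 (2 regions), ZNF253 and ZNF738 rose by 2.95 to 3.55 points. The 2 lines overlapped at each of these promoters. On ranks among regions open in all 40 libraries, 27 of the 30 cluster 5 regions were higher and 0 lower, with a median of +6.65. Members of the same cluster also went the other way by percentile, which were ZNF626 and ZNF90 (above), 1 of 2 ZNF730 regions (chr19:23075051-23075813, -23.6 points) and ZNF257 (-2.07). The ZNF626, ZNF90 and falling ZNF730 regions were not open in all 40 libraries. The ranks therefore left them out, and the count of 0 lower does not cover them.

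Every other cluster with at least 4 regions open in all libraries had a negative median. The lowest was that of cluster 2 (chr19:7069703-9793180, 16 genes), at -13.4 rank points with 7 of 9 regions lower and 2 higher, one of them ZNF561, which had the largest rise of the members on this scale (+13.1, SE 2.81) but not by percentile (+3.63, limma adjusted p = 0.176). Cluster 15 (chr19:51571283-53555487, 40 genes) followed, with 31 of 34 regions lower, 1 higher and a median of -10.0 rank points. ZNF765 fell by 41.8, ZNF845 by 38.4, ZNF525 by 37.8 and ZNF528 by 34.6 rank points. Of the 35 falls over 20 percentile points, 13 lay among the 41 regions tested in this cluster and 7 among the 14 of cluster 2. Cluster 3 (chr19:11486830-12640098, ZNF439 to ZNF799 among them) was even in direction, with 23 of 24 regions lower and a median of -5.86, and 17 of its 24 regions separated the lines without overlap, though none fell by over 20 points. In cluster 12 the median was -8.19 (13 of 19 lower), in cluster 16, at the end of the long arm, -5.03 (37 of 52 lower), and in cluster 9 -3.71 (20 of 26 lower).

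**Figure D4:**
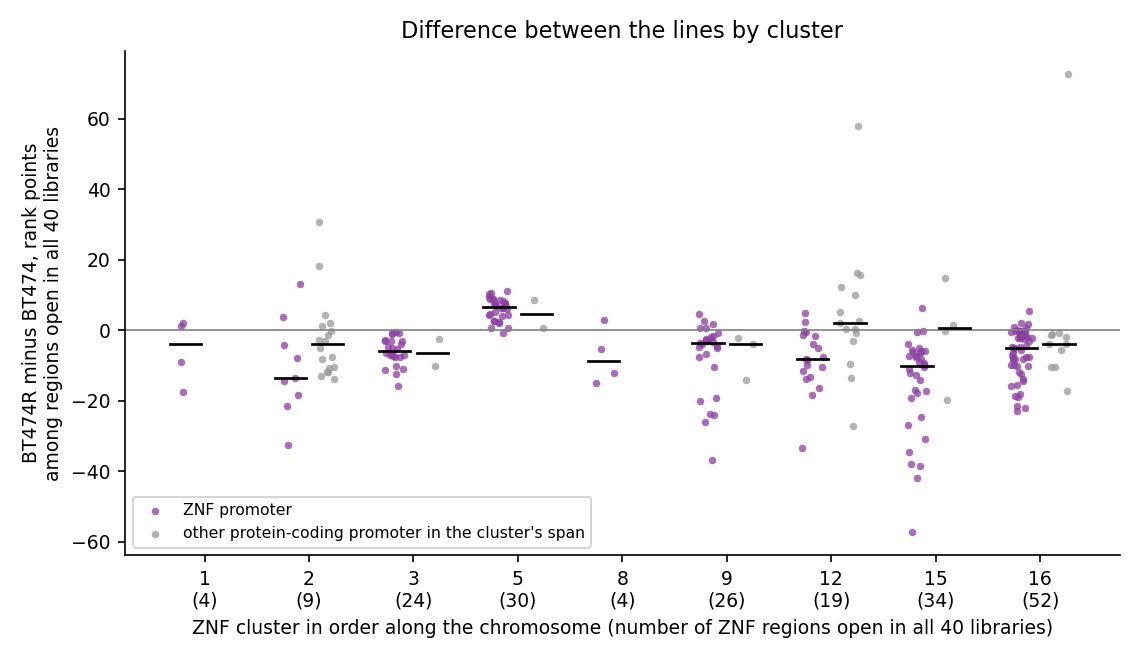
BT474R minus BT474 difference in rank points among regions open in all 40 libraries (vertical axis) for the 9 clusters with at least 4 such member regions, in order along the chromosome, with member promoters in purple, other protein-coding promoters of the same span in grey and bars at the medians. Cluster 5 lies above 0 and cluster 15 reaches farthest below it.

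Other promoters of the same stretches moved alike in some places and not in others. In the bin from 15 to 20 Mb, 65 other protein-coding promoters had a median of +5.51 rank points (47 higher, 10 lower) and 49 regions away from promoters +7.96, beside +7.70 for the 5 member regions there. From 20 to 25 Mb the 25 member regions had a median of +6.26, the only 2 other promoters +4.60 and 8 regions away from promoters +10.8. The rise of cluster 5 and its place on the chromosome therefore cannot be told apart here. From 50 to 55 Mb the 35 member regions had a median of -9.79, against -1.54 for 32 other promoters and +2.13 for 26 other regions, and within cluster 15 the 4 other promoters had a median of +0.58. Within cluster 12 the 15 other promoters had a median of +1.98, and in cluster 16 the 11 others -3.83.

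The difference between the lines had the same sign in each of the 10 conditions. The members' median was between -8.12 rank points (HRG, 1 h) and -2.07 (HRG, 24 h), and that of other protein-coding promoters between -3.12 and -0.12. Cluster 5 stayed positive throughout, from +2.20 to +10.6, and cluster 15 negative, from -18.6 to -2.07. With 2 libraries per condition and line these medians are descriptions.

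Members of cluster 5 also shared sequence features that did not enter the rule. In 300 bases around the median summit, 33 of its 34 regions (97.1%) held CCAAT or ATTGG, the core of the NFY motif, against 44.5% of the members outside it and 32.7% of 16772 other protein-coding promoter regions, and the exception was the upstream ZNF626 region. The ETS letters CCGGAAG (both strands) were found in 64.7% of the cluster's regions, 34.1% of other members and 13.2% of other promoters. The median CpG observed over expected ratio was 0.472 in cluster 5, 0.790 in the other members and 0.774 in other promoters, and 0.812 in cluster 15. The letters GGGCGG (SP) were in 68.6% of all members and 60.1% of other promoters. CCAAT also occurred where promoters fell: outside cluster 5 the 84 regions with it had a median difference of -5.18 rank points (58 lower, 12 higher) and the 94 without it -7.64 (80 lower, 4 higher). A match in these windows is not evidence of binding.

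No change in presence was called with a ligand, with 6 against 6 libraries per comparison. No member region was called in any of the 4 comparisons (Fisher's exact test, unadjusted p below 0.05, 0 of 245 each), with a background of 1.19% for EGF and 1.64% for HRG in BT474 and of 0.388% and 0.207% in BT474R. The number of open libraries differed by at most 2 between arms, or 3 for EGF in BT474R. Most regions had a peak in every library of a comparison: 236 and 233 of them in all 12 BT474 libraries of the EGF and HRG comparisons, and 208 in all 12 of each BT474R comparison.

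By percentile, 0 to 6 members passed the test for a ligand. EGF against control, averaged over the 3 times, passed the limma test at 0 of 236 regions in BT474 (8 at an unadjusted p below 0.05, background 17.7%) and at 6 in BT474R (background 18.4%). HRG passed at 2 in BT474 (background 18.1%) and 5 in BT474R (background 13.7%). Of other protein-coding promoters 5.08% to 5.82% were called in these 4 comparisons. The F test over the single times called 1 region for EGF in BT474, ZNF724 (background 17.5%), 2 for HRG in BT474 (20.5%), 14 for EGF in BT474R (21.9%) and 9 for HRG in BT474R (14.3%). On ranks among regions open in all 40 libraries the counts were 3 and 15 of 208 for EGF and 8 and 7 for HRG, BT474 first, where 1.44% to 7.21% of members and 3.52% to 9.08% of other promoters were called. Over all regions the shares on these ranks were 13.7% and 21.6% for EGF and 16.4% and 7.06% for HRG, BT474 first. The direction turned for HRG in BT474R, with 5 higher and 0 lower by percentile but 0 higher and 7 lower on these ranks, and for EGF in BT474R the calls went from 2 higher and 4 lower to 1 higher and 14 lower. These small counts moved with the settings. Without the 12 h libraries 0 regions were called for HRG in either line and 1 for EGF in BT474R. Without replicate 2 of the BT474R control at 12 h, HRG called 31 regions in BT474R, and without replicate 1 of it EGF called 10. In BT474 the regions nearest to a call for EGF were those of ZNF493 (+2.42 points, SE 0.950, limma adjusted p = 0.0867) and ZNF66 (+1.84, SE 0.728, limma adjusted p = 0.0891).

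**Figure D5:**
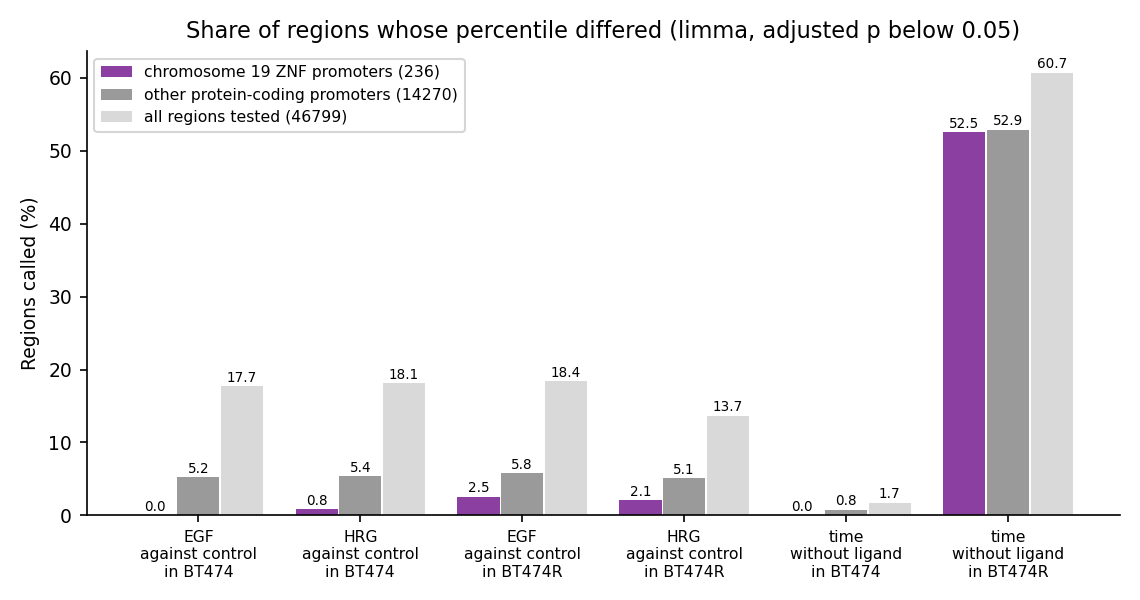
Share of regions called by limma (adjusted p below 0.05) for each ligand against control and for time without ligand, among the 236 member regions, 14270 other protein-coding promoters and all 46799 regions tested. Members lie at 0 to 2.54% in the ligand comparisons, below both other bars, and at 52.5% for time in BT474R.

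A ZNF584 region and a ZNF575 region were called with both ligands in BT474R, averaged over the times. The other region of each gene, from chr19:58401013 and chr19:43532512, was not called in these averaged comparisons. The ZNF584 region from chr19:58406897 stood at 75.6 to 95.0 in the 6 control libraries (median 84.0). It stood at 84.1 to 98.4 with EGF (median 88.1) and at 84.8 to 95.9 with HRG (median 90.6), so that the arms overlapped. The time-matched difference was +5.39 points for EGF (SE 1.44, limma adjusted p = 0.00903) and +5.23 for HRG (SE 1.44, adjusted p = 0.0158), and on ranks among always-open regions the HRG difference was +6.42 (limma adjusted p = 0.0505). ZNF575 (chr19:43525299 and on) also rose with both when averaged over the times, by 10.4 and 10.6 points (SE 3.30 each), from a control median of 4.75 (0 to 32.6) to 20.3 with EGF (0 to 38.5) and 20.2 with HRG (4.94 to 36.6). For EGF the differences at 1, 12 and 24 h were -5.80, +4.62 and +32.3 points, so the sign was not the same at each time. No peak was found here in replicate 1 of the 12 h and 24 h controls or in replicate 2 of 12 h EGF. The 2 comparisons share their control libraries, and the BT474R baseline libraries stood at 23.1 and 30.4 at this ZNF575 region, above the control median.

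EGF lowered a ZNF875 region and ZNF260 in BT474R. Neither other ZNF875 region was called, and the one from chr19:37312547 differed by +11.0 points (SE 4.48, limma adjusted p = 0.100). The ZNF875 region from chr19:37334121 stood at 80.0 to 88.5 in control (median 83.4), at 74.5 to 83.8 with EGF (median 82.1) and at 81.1 to 86.2 with HRG (median 83.8), and the EGF difference was -3.51 points (SE 0.775, limma adjusted p = 0.00179). ZNF260 differed by -2.08 (SE 0.650, limma adjusted p = 0.0256), and ZNF791 and ZNF613 by -1.35 and -7.99. At 1, 12 and 24 h the differences were -0.50, -5.03 and -0.72 for ZNF260 and -2.83, -20.3 and -0.88 for ZNF613. Averaged over the times, HRG raised ZNF101 in BT474R by 7.72 points (SE 1.94, limma adjusted p = 0.00828). It stood at 44.6 to 67.9 in control (median 59.95) and at 61.2 to 72.6 with HRG (median 65.2). At 1, 12 and 24 h its differences were -2.63, +15.4 and +10.4 points, so the sign was not the same at each time. On ranks among always-open regions it was not called (limma adjusted p = 0.225). ZNF700 and ZNF233 rose by 0.93 and 5.23 points by percentile, and neither was called on those ranks (limma adjusted p = 0.101 and 0.877). In BT474, HRG lowered ZNF574 by 1.10 points (SE 0.273, limma adjusted p = 0.00501), from 97.1 to 97.5 in control (median 97.3) to 95.9 to 97.3 (median 96.0). ZNF836 fell by 14.7 points (SE 5.12, limma adjusted p = 0.0475), from 41.9 to 55.2 (median 44.8) to 20.2 to 36.7 (median 32.0), and its arms did not overlap.

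EGF and HRG differed from each other at 0 members in BT474 (11 at an unadjusted p below 0.05, limma, background 0.410%) and at 13 in BT474R (background 8.93%), all lower with EGF by percentile. On ranks among always-open regions 3 of 208 were called, 1 higher and 2 lower (background 5.81%), and the members' median turned from -1.73 to +0.13. The 4 smallest p-values were those of ZNF628 (-6.04 points, SE 1.10), ZNF875 (region from chr19:37334121, -3.50, SE 0.775), ZNF345 (-1.26, SE 0.326) and ZNF274 (-11.2, SE 2.91). Of these, ZNF628 was also called on ranks among always-open regions, and ZNF875 and ZNF345 were not. The ZNF274 region called, the upstream of 2, was not open in all 40 libraries. No member passed the test of a difference between the lines in the EGF effect (9 at an unadjusted p below 0.05, limma, background 4.92%) or in the HRG effect (25 at an unadjusted p below 0.05, limma, background 4.29%). The smallest p-values belonged to ZNF724 (-2.20 points, SE 0.751) and the same ZNF875 region (-2.94, SE 1.10) for EGF. For HRG they belonged to ZNF700 (+1.22, SE 0.402) and ZNF524 (+1.70, SE 0.571). The calls above are therefore not shown to belong to one line.

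Over time without ligand, members in BT474R were called about as often as other promoters. Against baseline, 124 of 236 regions changed over 1, 12 and 24 h of control in BT474R (52.5%, limma F test, background 60.7%, other protein-coding promoters 52.9%) and 0 in BT474 (6 at an unadjusted p below 0.05, background 1.75%). At 12 h 121 of the 124 were below baseline, with a median of -6.10 points, and at 1 h 23 were below, with a median of +2.22. On ranks among always-open regions the direction turned: over all members tested the median was -4.74 by percentile and +2.82 by rank at 12 h, and +1.51 and -1.49 at 1 h. The 12 h control lists of BT474R were, together with its 12 h EGF lists, the shortest of all. On ranks among always-open regions 51 of 208 were called (background 26.4%), in BT474 0 of 208 (12 at an unadjusted p below 0.05, background 1.13%). With the number of peaks as a covariate 18 regions were called, and without replicate 1 of the 12 h control 57. What part the short lists had in the time differences was not tested further. ZNF274, a zinc finger protein that binds the 3′ ends of other ZNF genes and recruits SETDB1 there, had the smallest p at its upstream region (chr19:58181755-58182418, open in 36 of 40 libraries), with differences from baseline of -10.6, -41.9 and -18.7 points at 1, 12 and 24 h (limma F test, adjusted p = 8.77e-06). This region stood at 39.97 and 43.8 at baseline in BT474R and at 0 to 35.7 in the 6 control libraries (median 22.5), against 53.8 to 59.3 (median 57.8) in the BT474 controls. The main ZNF274 promoter (chr19:58182668-58184035), open in all 40 libraries, was not called over time. ZNF628, ZNF443 and ZNF283 followed by p.

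Genes of the machinery that works with KRAB zinc fingers were described beside the members. All 19 of the list had a promoter region, of which the strongest was used, and 14 were open in all 40 libraries. TRIM28 stood at 93.8 ± 0.494 in BT474 and 93.9 ± 0.862 in BT474R (SD, n = 20 libraries each) and did not pass the test between lines, with a difference of +0.07 (SE 0.187), though on ranks among always-open regions it was higher in BT474R by 1.33 (limma adjusted p = 0.00218). By percentile 5 of 19 were higher and 9 lower in BT474R, and among the 14 always-open ones 8 were higher and 5 lower, with a median of +2.51 rank points. Over all regions 30.1% were higher and 55.2% lower by percentile, and 41.5% and 42.5% on ranks among always-open regions. ATF7IP, the SETDB1 partner, rose by 11.9 points (SE 1.24), and DNMT1 and DAXX by 1.70 (SE 0.169) and 2.05 (SE 0.181). TASOR of the HUSH complex fell by 26.7 points (SE 5.24), UHRF1 by 23.6 (SE 2.36) and SUMO2 by 22.1 (SE 2.83). UHRF1 was open in 20 BT474 and 13 BT474R libraries (adjusted p = 0.0291, Fisher's exact test), a call not checked without the 12 h libraries. For EGF or HRG against control, averaged over times, 1 of the 19 was called, for EGF in BT474 (background 17.7%).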

How the data were processed

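ATAC-seq was done on 40 libraries, 2 for each of 20 groups of line, arm and time. The authors trimmed reads with Trim Galore 0.6.6, aligned them to GRCh38 with BBMap, removed mitochondrial and blacklisted reads and called peaks per library with Genrich (options: not given in the sources used here). The deposited peak lists give a score per peak (Genrich's area under the curve, at least 200) and −log10 p and q values as the authors' caller wrote them. The score alone was used, as a rank percentile within each list. Read depth is unknown, so list length stood in for it.

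Presence was compared by Fisher's exact test, and percentiles by limma 3.58.1 (R 4.3.3) with 20 group means and 20 residual degrees of freedom, over all regions in at least 20 lists, with Benjamini-Hochberg adjustment over all regions (0.05). Both steps were tested on simulated data. Tables were made in Python 3.11.15 with scipy 1.17.1. The members and gene lists were chosen with earlier results of these data known. Named members are all 17 called for presence (2 more than the rule's 15, because of ties), up to 8 per direction by size between lines, up to 4 per direction by p per ligand comparison (the 2 nearest where none passed), the 5 highest and lowest always-open regions and those open in the fewest libraries. ZNF257, ZNF525, ZNF528, ZNF561, ZNF730, ZNF765 and ZNF845 were named after their values were seen. Alternatives covered score, coverage, distance, filter, scale, covariate, block and left-out libraries. Some items are not reported here.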

Additional observations from a re-analysis of the deposited data

How the results depend on the processing

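Counts between lines moved little when a library was left out and more under other settings, and ligand counts moved under both. With 1 library left out at a time, 224 members had a region, 208 to 209 regions were open in every library, 15 to 17 were open in fewer and 2 in more BT474R libraries, and 183 to 192 were lower and 21 to 24 higher by percentile. The percentile differences of the 8 largest falls and 8 largest rises between lines were refitted where the region passed the filter. They kept their direction and side of the threshold in all 620 such refits and all 82 under other settings (ZNF556 passed the filter in 20 of 40 refits). Of the 8 falls only the downstream ZNF331 region was open in all 40 libraries. The other falls were therefore not checked among always-open regions or on ranks among them. These regions were picked by size from the calls in the same libraries, so the refits are no independent support for them. ZNF556 passed the filter through its BT474 libraries alone. Other named members did not all keep their direction or call: ZNF257 was lower by percentile (-2.07) and not called on always-open ranks (+0.59), and ZNF101 was called on those ranks alone (+5.18). The counts called ranged from 0 to 2 for EGF in BT474 (0 to 4 at any time), 2 to 10 for EGF in BT474R (9 to 22), 1 to 5 for HRG in BT474 (0 to 5), 1 to 31 for HRG in BT474R (3 to 39), 2 to 36 for EGF against HRG in BT474R, 57 to 163 for time in BT474R, and 0 to 1 (EGF) and 0 to 13 (HRG) for the difference between lines. The extremes for HRG and EGF against HRG in BT474R came without replicate 2 of the 12 h control (31, 39 and 13) and of 24 h HRG (36), and that of 57 without replicate 1 of the 12 h control.

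Presence between lines gave 32 lower and 0 higher with a score of at least 400, 24 and 0 with the same number of top peaks per list, 55 lower where a peak had to cover 50% of the region, 0 higher with midpoints within 500 bp, 7 and 1 in baseline and control libraries alone, and 6 lower without 12 h, a setting chosen after seeing the data. HRG presence in BT474 gave 1 under the first 2 settings. Percentiles higher in BT474R numbered 13, 46, 43 and 35 with the score minimum, equal top peaks, ranks among always-open regions and log2 score.

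For EGF in BT474 the count was 10, 9, 3 and 26 with equal top peaks, the peak-number covariate, always-open ranks and log2 score (any time: 11, 11, 7 and 18), and any time 0 with the score minimum and 2 with 50% coverage or no filter. For EGF in BT474R it was 18, 21, 15 and 13 (any time 26 with equal top peaks) and 2 with the score minimum. For HRG in BT474 it was 15, 16, 8 and 21 (any time 19, 11, 15 and 25), any time 4 with the score minimum, and 1 with 50% coverage, no filter or always-open regions alone (any time 1). For HRG in BT474R it was 9 with equal top peaks and 1 with the covariate (any time 5, 1, 5 and 4). Without 12 h the counts were 0 for HRG in both lines and 1 for EGF in BT474R, and with always-open ranks 1 for EGF in BT474 and 0 for HRG in BT474R. EGF against HRG in BT474R gave 3, 3, 3 and 2, and in BT474 1 with the score minimum. The EGF difference between lines gave 1 with the covariate or log2 score. Time in BT474R gave 44, 18, 51 and 78, and in BT474 1 with the score minimum or no filter and 2 with 50% coverage. The cause of these shifts was not tested.

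Replicate numbers did not pair the libraries: over 190 pairs of groups the correlation of same-numbered deviations ran from -0.234 to 0.542 (median 0.00369, 24 above 0.1). With the replicate block, EGF at any time in BT474 gave 2 and HRG in BT474 1, and no other count moved by over 1.5 times. With 2 libraries per group, no read depth and no peaks listed below the score minimum, an absent peak is no measure of a closed promoter.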
